A study of Mus musculus with 89 samples.

Results

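Cytotoxic effector genes were followed in the epithelium of the mouse jejunum, as a fixed list of 10 genes: the granzymes Gzma and Gzmb, the pore former Prf1, the granule protein Nkg7, the death ligand Fasl, the chemokines Ccl5 and Xcl1, the receptors Klrd1 and Cd160 and the integrin chain Itgae. The list was given by name, and all 10 genes have a row among the 23379 genes of the table of single cells, while 9 of the 10 (all but Prf1) have one among the 27538 genes of the table of clumps. A clump is a group of cells that stayed attached after the epithelium was loosened with EDTA. All animals were male C57BL/6 mice on regular chow, labelled 3 months old, except for 3 plates of single cells of mouse 2 that are labelled 4 months. Whether those 3 plates came from the same animal as the rest of mouse 2 is not given, and all 603 lymphocyte wells of mouse 2 came from plates labelled 3 months. No animal was treated, so the comparisons are between kinds of cells, zones of the epithelium and sizes of clumps.

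Single cells came from mice 1 to 4, on 44 plates that carry the gate names CD24, Epcam, onlyEpcam, CD45Epcam, CD54Epcam, EpcamLow_Cd24high and Epcam_Cd24low, or none. By the methods of the study, single cells were sorted as Epcam-positive and CD45-negative, CD24 was added for enteroendocrine cells, and CD45 was left out of the gate for tuft cells. CD45 is carried by lymphocytes, so a gate without cells positive for it removes them, but the labels do not tie each gate name to one of these sorts. Clumps with a 4n DNA content, taken as pairs of cells, filled 27 plates from mice 1 to 5, and 14 plates of mice 1, 4 and 5 held larger clumps above 4n. Clumps above 2n from mouse 6, on 4 plates, are described once. The mice of the 2 tables are numbered apart and were not taken as the same animals. RNA was counted with MARS-seq, which tags each captured mRNA near its 3' end with a unique molecular identifier (UMI), so levels are given as CPM, the UMIs of a gene in every 1000000 UMIs counted, and can be set side by side between genes with no scaling for length.

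Intraepithelial lymphocytes are T cells that sit between the enterocytes of the gut lining. Many carry a gamma delta T cell receptor, whose delta chain constant region is encoded by Trdc, and others an alpha beta receptor together with CD8 alpha beta, whose beta chain is encoded by Cd8b1. They are known for standing ready to kill: their granules hold granzymes, which are proteases, and perforin, which opens the target membrane for them. CD103, the product of Itgae, binds E-cadherin on the epithelial side and holds the cells in place.

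The promoter sequences of members are given first, to show the sequence beside genes whose levels differ between wells. RefSeq (GRCm38.p6) listed a start site for 7 of the 10 genes. The windows below are the 250 bases upstream of that start, read 5' to 3' on the gene's strand, for the 2 granzymes and for Xcl1, the genes on which the comparison between wells turns. Capitals mark the Runx core, TGTGGT or its reverse complement ACCACA. Gzma lies on chr13:113100982-113101231, Gzmb on chr14:56262335-56262584 and Xcl1 on chr1:164935523-164935772, all on the minus strand.
Gzma: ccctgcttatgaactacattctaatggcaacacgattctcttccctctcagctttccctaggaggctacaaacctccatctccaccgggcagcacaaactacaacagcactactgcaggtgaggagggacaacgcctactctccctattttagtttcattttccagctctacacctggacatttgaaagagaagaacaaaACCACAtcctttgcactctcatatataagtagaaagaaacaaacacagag
Gzmb: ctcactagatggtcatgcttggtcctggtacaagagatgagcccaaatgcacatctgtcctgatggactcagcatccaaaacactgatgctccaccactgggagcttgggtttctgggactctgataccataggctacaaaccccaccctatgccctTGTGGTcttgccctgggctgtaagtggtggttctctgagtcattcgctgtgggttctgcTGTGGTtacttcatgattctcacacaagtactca
Xcl1: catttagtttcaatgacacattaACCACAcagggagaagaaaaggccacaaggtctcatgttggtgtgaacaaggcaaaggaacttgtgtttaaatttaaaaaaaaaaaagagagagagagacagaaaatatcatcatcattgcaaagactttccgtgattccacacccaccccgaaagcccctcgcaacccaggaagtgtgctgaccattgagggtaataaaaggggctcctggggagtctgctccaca
The Runx core was found on either strand in 6 of the 7 listed promoters (Cd160, Gzma, Gzmb, Nkg7, Prf1 and Xcl1) and in 14.0% of the 32851 windows of this length. In the Gzmb window it occurs at 93 and 34 bases upstream of the start, in that of Gzma at 50 and in that of Xcl1 at 227. The T-box sequence GGTGTGA or its complement was found in the windows of Cd160, Nkg7 and Xcl1 and in 3.33% of all windows. The letters GGT end the Runx core TGTGGT and begin GGTGTGA, so matches of the 2 can share letters. These are matches of letters, and binding was not measured. Itgae, Cd160 and Xcl1 overlap a gene on the other strand (Haspin, Pdzk1 and Gm20743), and the study counted reads by strand.

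Of the 16850 wells of single cells, 5199 were kept. A well was called a lymphocyte well when it held at least 3 UMIs over at least 2 of 18 T cell genes, none of which is among the 10 effector genes. This gave 1409 lymphocyte wells, 603 from mouse 2, 584 from mouse 3, 220 from mouse 4 and 2 from mouse 1. The 2 wells of mouse 1 entered no level by mouse and no test, and are part of the values given over all lymphocyte wells. There were 2321 enterocyte wells, from all 4 mice. Summed per mouse, the lymphocyte wells of mice 2 to 4 held 212282 to 710624 UMIs. The lymphocyte wells held a median of 919 UMIs and the enterocyte wells 2942. By the rule all of these wells hold T cell genes: Cd3e was found in 57.3% of lymphocyte wells, Cd3g in 66.2% and Cd8a in 66.0%. Trdc was found in 33.9% and Cd8b1 in 5.96%. Of 4 markers of natural killer and related innate cells, Ncr1 and Eomes had no UMI in any lymphocyte well, while Klrb1c and Tyrobp were found, so that the list held 840 UMIs, 565 CPM, in 32.6% of the wells (45.9, 20.03 and 30% in mice 2, 3 and 4). Genes of other cells were also read there: the 13 enterocyte genes stood at 1078 CPM in all, in 50.1% of the wells. In the wells of mouse 2 alone the enteroendocrine list reached 3283 CPM, the Paneth list 2910 and the haemoglobin genes 1675, against 18.8 to 107 for the first 2 lists and 0 for the third in mice 3 and 4. Their part in the levels of the effector genes was not tested.

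The 10 genes made up a large share of the RNA of lymphocyte wells. They took 4.26% of all UMIs there, 63305 in number, with a median of 4.71% per well, quartiles of 2.86 and 6.23% and a maximum of 12.3%. Gzma alone held 48.1% of these UMIs, Ccl5 34.8% and Gzmb 10.5%, so 3 genes carried most of the load and the other 7 were minor by number of molecules. A well held a median of 4 of the 10 genes and at most 8, and 23 wells held none.

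Gzma encodes granzyme A, a trypsin-like protease of the granule. It stood at 23163, 17387 and 19865 CPM in the lymphocyte wells of mice 2, 3 and 4, a mean of 20138 ± 2897 (SD, n = 3), and 89.9% ± 5.15 of wells held at least 1 UMI. Gzmb, the aspartate-directed granzyme B that sets off apoptosis, stood at 5439, 3412 and 4098 CPM, and 75.9% ± 8.05 of wells held it. In every mouse Gzma was above Gzmb, and 75.7% of the wells held both. The single richest well had 194 UMIs of Gzma, and the richest for Gzmb had 56.

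Prf1 encodes perforin, through which granzymes enter the target. It was seen at 21.1, 16.03 and 23.6 CPM, from 29 UMIs in 27 wells, so 1.89% ± 0.396 of wells held one. The mean level of Gzmb in the same wells, 4316 ± 1031 CPM, lay far outside that range. Nkg7, a membrane protein of cytotoxic granules, was found at 1110, 926 and 1088 CPM, in 55.9% ± 6.83 of wells. Fasl, the ligand of the death receptor Fas, stood at 88.7, 89.1 and 141 CPM, in 9.21% ± 2.57 of wells.

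Of the chemokines, Ccl5 (RANTES), which draws T cells and monocytes, was the more widespread. It was at 14670, 14475 and 16134 CPM and in 94.4% ± 2.68 of wells, the largest share of the 10 genes. Xcl1 (lymphotactin), which draws XCR1-bearing dendritic cells, stood at 110, 200 and 75.4 CPM and in 4.62% ± 0.769 of wells. Its UMIs sat in few wells: one well of mouse 3 held 72, or 35.0% of all Xcl1 UMIs in lymphocyte wells. For Gzma the richest well held 0.637% of the gene's UMIs.

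The receptors and the integrin lay between these extremes. Klrd1 encodes CD94, which pairs with NKG2 chains to read the non-classical MHC molecule Qa-1, and stood at 761, 420 and 716 CPM in 37.8% ± 12.1 of wells. Cd160, a receptor for HVEM on epithelial cells, stood at 200, 239 and 184 CPM in 16.1% ± 1.93 of wells. Itgae stood at 711, 625 and 773 CPM in 44.3% ± 4.30 of wells. By mean level the order was Gzma, Ccl5, Gzmb, Nkg7, Itgae, Klrd1, Cd160, Xcl1, Fasl and Prf1. Values by mouse overlapped between Itgae and Klrd1, between Cd160 and Xcl1 and between Xcl1 and Fasl, so the ranges do not separate these neighbours. Within each mouse, however, Cd160 was above Xcl1 in 3 of 3, while the other 2 pairs changed order between mice.

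Shares depend on depth, so the wells were also thinned to 500 UMIs each. In the 1199 lymphocyte wells that had as many, the mean share over the 3 mice was 86.1% for Gzma, 90.7% for Ccl5 and 69.8% for Gzmb, and it fell to 38.0% for Nkg7, 29.96% for Itgae and 25.9% for Klrd1. It was 9.85% for Cd160, 5.75% for Fasl, 2.61% for Xcl1 and 1.15% for Prf1. In enterocyte wells thinned alike, Ccl5 was in 1.53% ± 1.52 (SD, n = 4) and Gzma in 1.26% ± 1.37, and Klrd1, Prf1, Fasl, Cd160 and Xcl1 were in none.

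**Figure D1:**
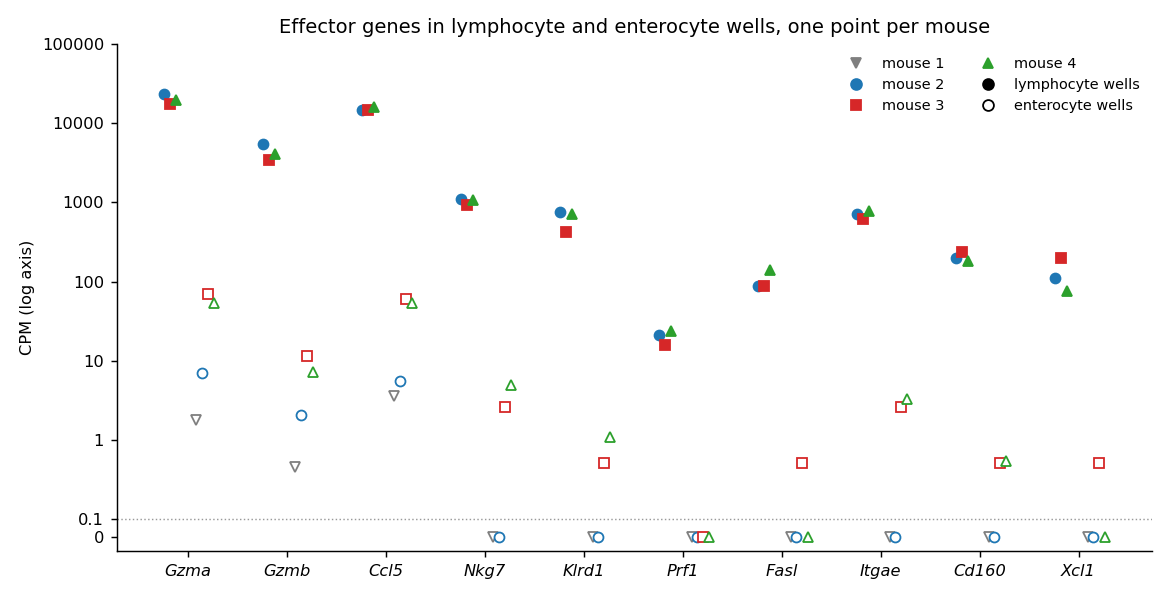
Level of each effector gene (CPM, log axis, with 0 drawn under the dotted line) in lymphocyte wells (filled, mice 2 to 4) and enterocyte wells (open, mice 1 to 4), 1 point per mouse. Each gene is above its enterocyte level in all 3 mice with lymphocyte wells, and Gzma, Ccl5 and Gzmb stand apart at 3412 to 23163 CPM.

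All 10 genes were higher in lymphocyte than in enterocyte wells (edgeR, quasi-likelihood test on sums per mouse, 3 mice against 4). The same test called 2839 of 9060 genes higher, 31.3%, and 5549 in either direction, 61.2%, so a call is common in this contrast. Wells were classed by genes that are not members, but lymphocytes are known to carry these genes, so the direction describes the wells and is no finding. Prf1 had no UMI in enterocyte wells, Fasl and Xcl1 had 1 each, Cd160 2 and Klrd1 3, all at or under a floor of 3 UMIs, so these 5 genes could pass in this direction alone and their fitted sizes are not ranked. The other 5 had a median fitted log2 difference of 7.50, against 0.01 over the 8141 genes above the floor in both kinds of well. With sums pooled over mice, no scaling factor and sums of 0 set to that floor, the median of the 10 genes was 9.37 and that of all genes tested 1.69. Gzmb differed by 8.12 (SE 0.70), Gzma by 7.79 (SE 0.93), Nkg7 by 7.50 (SE 0.73), Ccl5 by 7.45 (SE 0.84) and Itgae by 7.25 (SE 0.67). Scaling by total UMIs alone moved the median of all genes to 1.70 and the share of higher calls from 51.2% to 82.3%, and fitted values here are relative to the TMM scaling. With all wells pooled and no such scaling, Gzma was 617-fold higher in lymphocyte wells (95% interval 544 to 703, for counting error only) and Gzmb 847-fold. These ratios hide a wide spread: within mice 2, 3 and 4 Gzma was 3338-fold, 251-fold and 367-fold higher and Gzmb 2612-fold, 298-fold and 571-fold. Without mouse 3 the pooled ratios were 1091 and 1646. The spread is not one between mice alone, since the plates differed too. All 603 lymphocyte wells of mouse 2 came from CD24 plates, but only 9 of its 515 enterocyte wells did. Gzma stood at 259 CPM in those 9 and at 3.52 CPM in the 506 on plates with no lymphocyte well. Prf1 had no UMI among 7374604 of enterocyte wells and was at least 48.0-fold higher, against a floor of 3 UMIs over all enterocyte wells.

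Genes that work with granzymes were counted as a list of 14. Of the 13 tested, 11 were higher in lymphocyte wells and 2 lower (Stxbp2 and Lamp1). Gzmc, Gzmk and Stx11, all among the 11, had no UMI in enterocyte wells and passed the filter through the lymphocyte wells alone. Ctsw and Serpinb9 were under the floor of 3 UMIs in enterocyte wells. Of the 13 genes, 7 were above the floor in both kinds of well, with a median fitted log2 difference of 2.30. The others could pass in the higher direction alone. Srgn, the proteoglycan that packs granzymes into the granule, stood at 815 ± 48.4 CPM (SD, n = 3) against 2.25 ± 2.37 (n = 4), and the cathepsin Ctsw at 395 ± 51.3 against 0.130 ± 0.260. Cst7, an inhibitor of granule cathepsins, stood at 249 ± 32.9 against 0.927 ± 1.23 CPM. Other granzymes were rare: Gzmk was at 39.4 ± 11.7 CPM and Gzmc at 21.0 ± 17.4, both with no UMI in enterocyte wells. Serpinb9, which shields cells from granzyme B, stood at 27.3 ± 10.6 against 0.275 ± 0.551 CPM. Stxbp2, needed for granule fusion, was lower by the TMM scaling (−1.23) and 0.43 with total UMIs alone, so its direction depends on the scaling, and Lamp1 was no longer called with total UMIs alone (−0.24, adjusted p = 0.614 by edgeR).

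Among 11 receptors and adaptors of natural killer cells, 7 could be tested and all 7 were higher. Klre1, Klrb1c and Cd226 had no UMI in enterocyte wells, so they could pass in this direction alone, and the median fitted log2 difference of the other 4 was 6.07. They include the signalling chains Fcer1g (797 ± 235 CPM) and Tyrobp (532 ± 192) and the receptor Cd244 (169 ± 22.2), while Klrk1, Klrc1, Klrc2 and Klra7 had too few UMIs. Of 8 cytokines and their receptors, all 5 tested were higher, but only Tnfsf10 (2.13) was above the floor in enterocyte wells, so the other 4 could pass in this direction alone, among them Ccl4 (214 ± 58.0 CPM) and the interleukin 2 and 15 receptor chain Il2rb (197 ± 44.2). Ifng, the macrophage-activating interferon gamma, stood at 26.9 ± 24.6 CPM, with no UMI in enterocyte wells. All 3 tested genes of residency and homing were higher, namely Itgb7, the partner of CD103 (169 ± 24.8 CPM), Ccr9 (179 ± 20.9) and Cd69 (75.1 ± 3.78), while S1pr1, Klf2 and Ccr7, genes of circulating T cells, had too few UMIs to test. Only 2 of these 3 were above the floor in both kinds of well, with a median fitted log2 difference of 5.58. The third could pass in this direction alone.

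The epithelial partners of the effector genes went the other way, with 6 of 6 tested lower in lymphocyte wells, as were 29.9% of all genes tested. Of the 6, Btnl6 had no UMI in lymphocyte wells (11.6 ± 1.22 CPM in enterocyte wells), and Il15 was under the floor of 3 UMIs there. Both could pass in this direction alone. The other 4 had a median fitted log2 difference of −3.55. Ccl25, the ligand of Ccr9, stood at 27.6 ± 18.8 CPM in lymphocyte wells and 278 ± 130 in enterocyte wells. Btnl1, a butyrophilin-like gene that gamma delta T cells of the gut depend on, stood at 2.72 ± 2.67 against 82.8 ± 15.3, and Il15 at 1.06 ± 0.939 against 17.7 ± 9.84. Cdh1, which encodes the E-cadherin bound by CD103, stood at 76.2 ± 24.2 against 120 ± 31.6, a difference of −2.27 that was −0.62 and not called with total UMIs alone (adjusted p = 0.203 by edgeR). Tnfrsf14, which encodes HVEM, had too few UMIs to test, with 0 in lymphocyte wells and 0.173 ± 0.347 CPM in enterocyte wells. Fas, the receptor of Fasl, was lower by TMM scaling (−1.24, SE 0.41) and 0.38 with total UMIs alone. Of 7 tested transcription factors, Runx3 (175 ± 16.2 CPM), Tbx21 (40.2 ± 11.2, with none in enterocyte wells), Id2 (479 ± 59.4) and Ahr (21.6 ± 6.61) were higher, Id3 and Sox13 were lower, Sox13 with no UMI in lymphocyte wells, and Prdm1 was not called (log2 difference 0.19, SE 0.50, adjusted p = 0.753 by edgeR). Prdm1 stood at 69.7 ± 15.0 against 17.6 ± 8.60 CPM and was called with total UMIs alone (1.97, SE 0.44, adjusted p = 0.00127 by edgeR), so its call depends on the scaling. Like the other genes listed at 0 in one kind of well, Tbx21 and Sox13 could be called in 1 direction alone. Of the 7 factors, only 4 were above the floor of 3 UMIs in both kinds of well, with a median fitted log2 difference of 0.65. Tbx21 and Sox13 are thus not the only factors so limited.

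The lymphocyte wells were then split by whether they held Trdc or Cd8b1. In mice 2, 3 and 4, 259, 152 and 61 wells held Trdc and no Cd8b1, and 28, 41 and 11 wells held Cd8b1 and no Trdc. The sums held 13307 to 316588 UMIs, the lowest from the 11 Cd8b1 wells of mouse 4. The split is not one by receptor alone: Trac, of the alpha chain, was in 26.2% of Trdc wells and 41.25% of Cd8b1 wells, Trbc2, of the beta chain, in 46.9% and 60%, and Tcrg-C2, of the gamma chain, in 65.1% and 51.25%. Other gamma chain genes differed more or to a like degree, with Tcrg-C1 in 76.5% and 28.75% and Tcrg-C4 in 40.4% and 30%. The 10 genes together stood at 51379 ± 567 CPM (SD, n = 3) in Trdc wells, 25956 ± 9366 in Cd8b1 wells and 39964 ± 5908 in wells with neither.

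Gzma was at 25740, 25694 and 24152 CPM in the Trdc wells of mice 2, 3 and 4 and at 6453, 9633 and 16533 CPM in the Cd8b1 wells. Every Trdc value lay above every Cd8b1 value, and the fitted log2 difference was 1.30 (SE 0.24, adjusted p = 0.00409 by edgeR). Gzmb was at 6008, 4962 and 5612 against 1690, 2157 and 4885 CPM, a difference of 1.15 (SE 0.23, adjusted p = 0.00637), again with no overlap. Ccl5 was at 15778, 17515 and 18707 against 7392, 10209 and 10972 CPM, a difference of 0.89 (SE 0.17, adjusted p = 0.00486). Klrd1 was at 891, 757 and 785 against 211, 55.8 and 526 CPM, a difference of 2.19 (SE 0.39, adjusted p = 0.00372). Its Cd8b1 values rest on 9, 3 and 7 UMIs, at the floor of 3 in mouse 3, so its size is not ranked among the members. Of the 7 members tested, these 4 passed, all higher in Trdc wells. The test called 23 of 669 genes, 3.44%, of which 19 were higher in Trdc wells (2.84%) and 4 lower (0.598%). At an unadjusted p under 0.05 there were 85 genes, and DESeq2 called 12.

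The other 3 tested members did not pass. Nkg7 stood at 1211 ± 41.6 against 805 ± 329 CPM (log2 difference 0.73, SE 0.22, adjusted p = 0.0955 by edgeR) and Itgae at 846 ± 114 against 574 ± 230 CPM (0.71, SE 0.23, adjusted p = 0.151). Both were higher in Trdc wells in each mouse. With the mouse number as a block, Nkg7 passed (adjusted p = 0.00194 by edgeR) and 39 genes were called. Cd160 was at 190, 176 and 117 CPM in Trdc wells and at 235, 223 and 376 CPM in Cd8b1 wells, the latter from 10, 12 and 5 UMIs. It was thus lower in Trdc wells in each mouse but not called (−0.54, SE 0.37, adjusted p = 0.647 by edgeR). How many of the 669 genes tested show no overlap between the subsets is not given, so non-overlap marks out no member here. Fasl, Prf1 and Xcl1 had too few UMIs for the test. Fasl was found in 53 of 473 Trdc wells (1 of them from mouse 1) and 6 of 80 Cd8b1 wells, and Prf1 in 15 and 3.

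These calls rest on 3 mice. Without mouse 2, 3 or 4 the count of called members was 1, 0 and 2, and without mouse 3 the difference for Gzma remained at 1.22 while its adjusted p was 0.680 by edgeR. Asking for at least 2 UMIs of Trdc or Cd8b1 left 1 member called. The T cell genes used to class wells were also higher in Trdc wells, at 11023 ± 847 against 7883 ± 1954 CPM without Trdc and Cd8b1 themselves. Other lists moved with the split in each of the 3 mice. The natural killer list stood at 736, 608 and 501 CPM in Trdc wells against 446, 0 and 0 in Cd8b1 wells, the tuft list at 499, 101 and 200 against 141, 37.2 and 0, and the enterocyte list at 502, 1142 and 1821 against 610, 1209 and 3532. The B and plasma cell list was higher as well, at 148, 372 and 217 against 141, 279 and 0 CPM, as was the goblet list, at 145, 379 and 100.2 against 117, 372 and 0, while the Paneth list was lower, at 2827, 81.1 and 50.1 against 3309, 112 and 150.3. The enteroendocrine list stood at 1564, 13.5 and 16.7 against 1244, 0 and 0 CPM, and the myeloid, mast cell, haemoglobin and fibroblast lists did not move alike in the 3 mice. In Cd8b1 wells a value of 0 allows up to 55.8 CPM in mouse 3 and 225 CPM in mouse 4, by the floor of 3 UMIs. That is above the Trdc values of the enteroendocrine list in both mice, and of the tuft, B and plasma cell and goblet lists in mouse 4. Those directions are therefore not settled. The part of these in the differences was not tested.

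Outside the list, the genes with the largest fitted difference that moved alike in every mouse, after Trdc itself, were the signalling chain Fcer1g (log2 difference 3.28, SE 0.41), the transcription factor Ikzf2 (3.05, SE 0.55), Serpina3g (2.96, SE 0.57) and Chn2 (2.71, SE 0.55). In Cd8b1 wells the last 3 averaged 26.4, 20.2 and 26.4 CPM, under the lowest floor of 3 UMIs in a mouse, 55.8 CPM. They could pass in this direction alone, and the sizes of their differences are not exact. Lower in Trdc wells were Cd8b1, by which wells were chosen, Cd74, the invariant chain of MHC class II (−2.28, SE 0.53), and the ribosomal protein gene Rplp0 (−0.63, SE 0.16). Of the lists above, Fcer1g was the 1 receptor or adaptor of 3 tested that passed, although Tyrobp (1.85, adjusted p = 0.138 by edgeR) did so with total UMIs alone (1.86, SE 0.53, adjusted p = 0.04796 by edgeR), and the chemokine Ccl4 was lower in Trdc wells at 202 ± 51.8 against 557 ± 415 CPM (−1.78, SE 0.39, adjusted p = 0.0156 by edgeR). Ccl4 was the 1 called gene of the 23 that did not move alike in every mouse, with 142, 230 and 234 CPM in the Trdc wells of mice 2, 3 and 4 and 422, 1023 and 225 CPM in the Cd8b1 wells. None of the 4 tested granule companions passed, with Srgn at 884 ± 4.56 against 633 ± 61.2 CPM (adjusted p = 0.295 by edgeR). Itgb7, the 1 residency gene tested, stood at 178 ± 7.67 against 186 ± 34.5 CPM (adjusted p = 0.997 by edgeR), and Id2, the 1 transcription factor tested, at 489 ± 9.49 against 446 ± 271 CPM (adjusted p = 0.654 by edgeR). No epithelial partner had enough UMIs for the test.

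**Figure D2:**
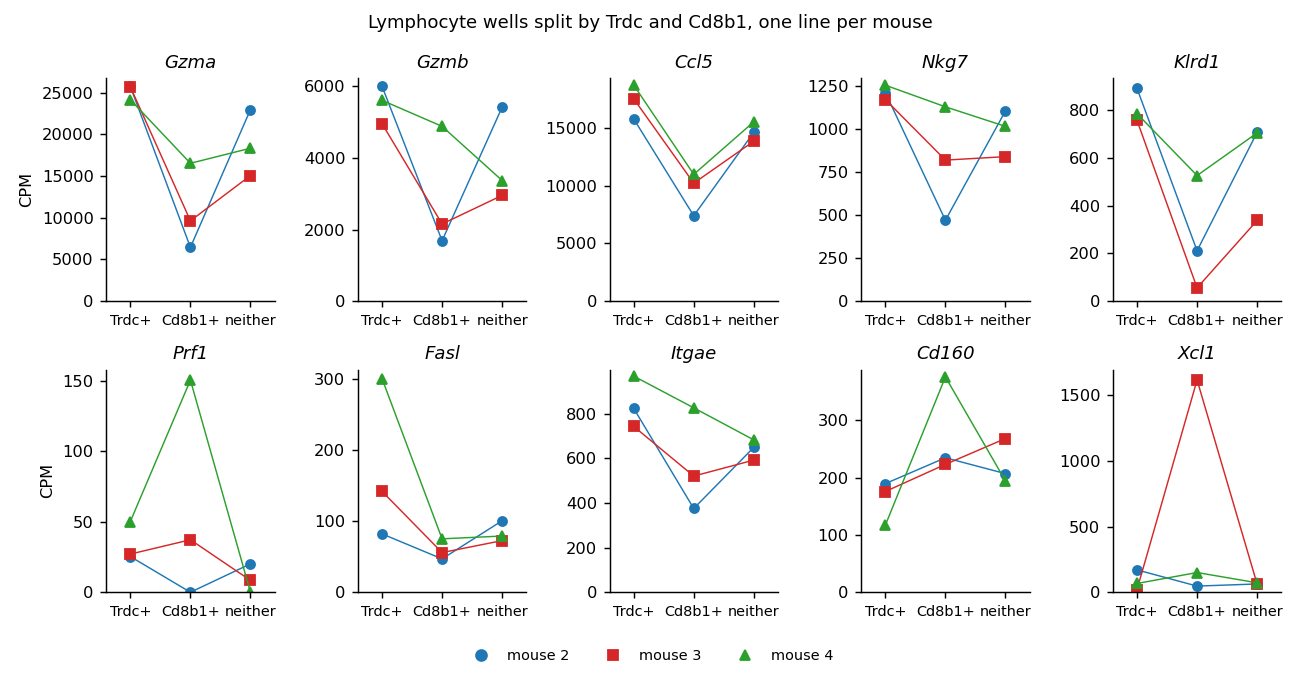
Level of each effector gene (CPM, linear axes that start at 0) in lymphocyte wells with Trdc, with Cd8b1 and with neither, 1 line per mouse for mice 2 to 4. Gzma, Gzmb, Ccl5 and Klrd1 are higher in Trdc wells in all 3 mice and passed the test. Nkg7 and Itgae are also higher and Cd160 is lower in all 3 mice, but they did not pass, and Fasl, higher too, was not tested. The high Xcl1 point of mouse 3 rests on 1 well.

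Xcl1 stood out from the other members. In Cd8b1 wells it was at 46.9, 1618 and 150 CPM in mice 2, 3 and 4 and in Trdc wells at 171, 20.3 and 66.8 CPM, with overlapping ranges. The high value of mouse 3 came from the well with 72 UMIs, and without it the level was 300 CPM. By share of wells, Xcl1 was in 5.41, 1.32 and 4.92% of Trdc wells and in 7.14, 17.1 and 18.2% of Cd8b1 wells, the latter from 2, 7 and 2 wells.

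Wells with Xcl1 held little granzyme, a split that was chosen after the values were seen and is given with no test. There were 27, 23 and 12 such wells in mice 2, 3 and 4, with a median of 1335 UMIs against 899 in wells without it. Gzma stood at 4151, 2155 and 3892 CPM in wells with Xcl1 and at 24457, 18480 and 20872 CPM in wells without. Gzmb stood at 795, 426 and 635 against 5755, 3626 and 4317 CPM. Ccl5 was lower too, at 2870, 3246 and 6831 against 15474, 15280 and 16721 CPM. The wells with Xcl1 were thus the deeper ones, and in each mouse they held less granzyme RNA per UMI.

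Not every gene was low there. Cd160 stood at 375, 346 and 238 CPM in wells with Xcl1 and at 188, 231 and 180 CPM without. Ccr9, the homing receptor for the small intestine, stood at 530, 293 and 238 against 150, 195 and 155 CPM, and Cd69, a marker of activation and residency, at 243, 106 and 238 against 67.6, 68.7 and 65.1 CPM, though the counts in wells with Xcl1 were 3 to 24 UMIs per gene and mouse. The difference in Gzma was seen in each kind of well: 2994 against 26859 CPM among Trdc wells, 3289 against 10769 among Cd8b1 wells and 3580 against 19683 among wells with neither. With wells thinned to 500 UMIs, Gzma was in 24.1% of the 29 wells that still had Xcl1 and in 88.5% of the 1170 others.

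**Figure D3:**
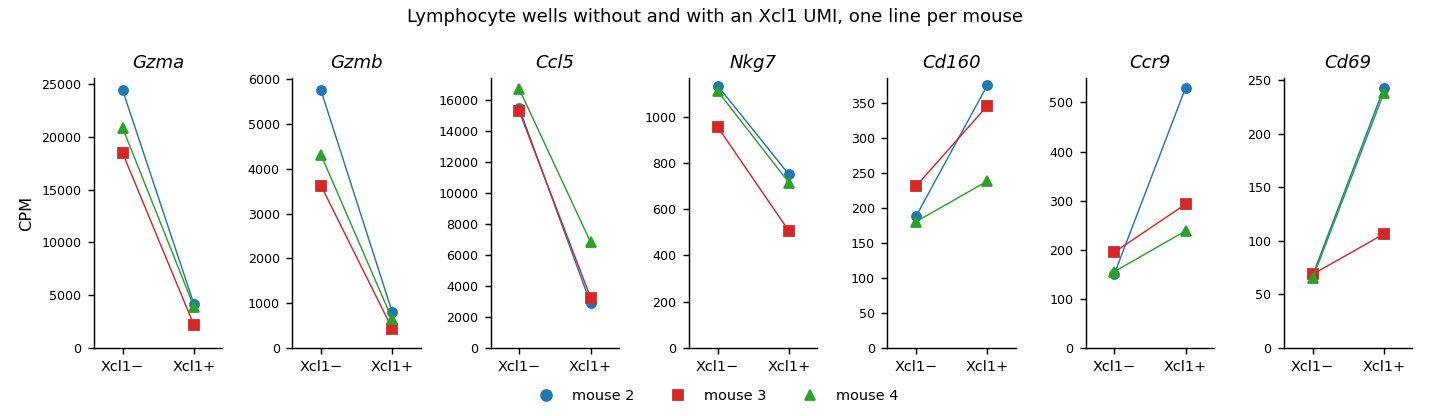
Level of 5 effector genes and of Ccr9 and Cd69 (CPM, linear axes that start at 0) in lymphocyte wells without and with an Xcl1 UMI, 1 line per mouse for mice 2 to 4. Gzma, Gzmb, Ccl5 and Nkg7 fall from left to right in all 3 mice, and Cd160, Ccr9 and Cd69 are higher on the right.

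Wells with neither granzyme numbered 110, or 7.81% of lymphocyte wells, and held a median of 1002 UMIs against 910 in the others, so they were not the shallow ones. Ccl5 was in 61.8% of them and 98.0% of the others, Xcl1 in 24.5% and 2.69%, and Ccr9 in 31.8% and 12.2%. Cd8a was in 35.5% and 68.6%, and Cd4, the co-receptor of helper T cells, in 10.0% and 1.77%. By subset, wells with no granzyme were 2.70, 5.92 and 4.92% of Trdc wells and 10.7, 22.0 and 0% of Cd8b1 wells in mice 2, 3 and 4, where 0 of 11 wells allows a share of up to 27.3%. Among the other members, Gzma and Gzmb went together: in wells thinned to 500 UMIs, Gzmb was in 79.5% of the 1043 wells with Gzma and 11.5% of the 156 without. Cd160 was in 9.49% and 13.5% of the same wells, so it did not follow Gzma.

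UMIs of these genes were also found in enterocyte wells, although enterocytes are not known to make granzymes. T cell genes were found in 4.95% of the same wells, and whether such UMIs came from RNA free in the suspension or from a lymphocyte in the well was not tested. The 10 genes summed to 5.90, 14.6, 149 and 125 CPM in the enterocyte wells of mice 1 to 4, a mean of 73.7 ± 74.0 (SD, n = 4), from 547 UMIs in all. That was 0.0315, 0.394 and 0.291% of the level in the lymphocyte wells of mice 2, 3 and 4. The make-up was close to that of lymphocytes, with Gzma at 44.8% of these UMIs (48.1% in lymphocyte wells), Ccl5 at 42.2% (34.8%) and Gzmb at 7.13% (10.5%). In enterocyte wells with no T cell UMI at all, the mean was 66.1 ± 65.9 CPM.

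The level moved with the number of lymphocytes sorted under the same gate. No lymphocyte well was found under the Epcam gate of mouse 2 or on the plates with no gate name of mice 1 and 2, and there the enterocyte wells held 6.25, 5.90 and 21.3 CPM. Under the gate named onlyEpcam, 45.9% of kept wells of mouse 3 and 26.4% of mouse 4 were lymphocyte wells, and the enterocyte wells held 204 and 146 CPM. Under CD45Epcam in mouse 3 the lymphocyte share was 2.17% and the enterocyte level 68.8 CPM, and under CD54Epcam in mouse 4 they were 3.10% and 50.5 CPM. The same mouse therefore gave both a high and a low value, by gate. On the CD24 plates of mouse 2, where 55.8% of kept wells were lymphocyte wells, the 9 enterocyte wells held 518 CPM, the 170 enteroendocrine wells 746 and the 85 tuft wells 693, and 66.7, 64.1 and 65.9% of them held at least 1 effector UMI. On all other gates the share of enterocyte wells with at least 1 effector UMI ran from 1.52% to 50%, the highest being onlyEpcam in mouse 3, and it was 33.5% under onlyEpcam in mouse 4. These are 8 combinations of mouse and gate over 4 mouse numbers, and no correlation was computed.

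**Figure D4:**
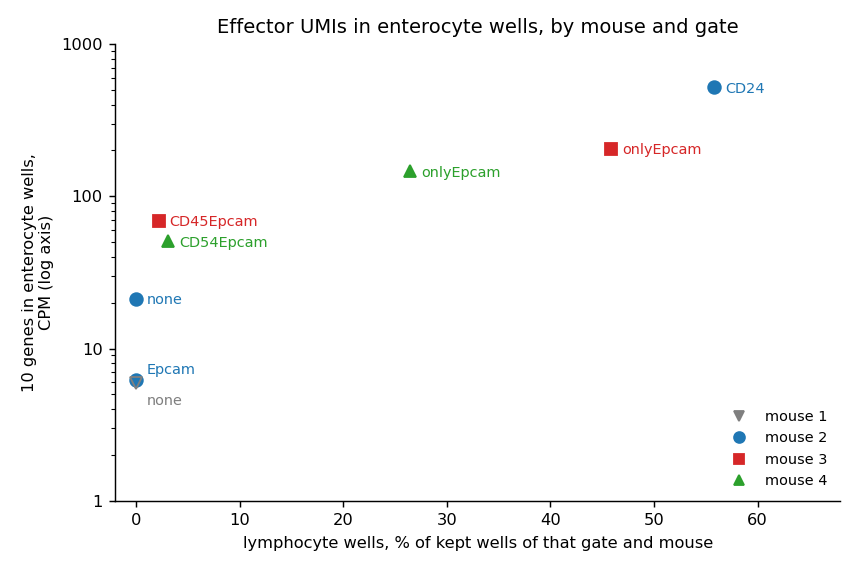
Summed level of the 10 genes in enterocyte wells (CPM, log axis) against the share of lymphocyte wells among kept wells (%), 1 point per mouse and gate with at least 5 enterocyte wells. The points run from 5.90 CPM where no lymphocyte well was kept to 518 CPM on the CD24 plates of mouse 2.

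Wells with under 100 UMIs, which hold no cell or a poor one, carried the genes at 157, 3959, 2375 and 2993 CPM in mice 1 to 4, from 236 UMIs in all. In mouse 2 the level was 9832 CPM on CD24 plates and 87.8 on Epcam plates. Gzma alone stood at 5226 CPM in those wells on CD24 plates, 22.6% of its level in lymphocyte wells. Among wells of the CD24 plates thinned to 500 UMIs, Gzma was in 90.4% of 543 lymphocyte wells, 11.9% of 168 enteroendocrine wells and 12.9% of 85 tuft wells, which was 95.7, 45.9 and 44.7% before thinning. The shares of 1.15% for Prf1 and 2.61% for Xcl1 are small in themselves. No well held either gene among the 168 enteroendocrine and 85 tuft wells of the CD24 plates, nor among the 316 and 429 enterocyte wells under onlyEpcam of mice 3 and 4, all thinned alike, where 1.47% (mouse 2, CD24), 0.847% and 1.14% of lymphocyte wells held Prf1 and 2.58, 1.91 and 3.43% held Xcl1. Were their shares lower by as much as that of Gzma, too few wells would hold them to be seen, so these zeros decide nothing. Before thinning, Xcl1 was in 0.3125% of the 320 enterocyte wells under onlyEpcam of mouse 3.

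In clumps the genes were scarce. Over 5883 clumps of mice 1 to 5, the 9 genes gave 473 UMIs in 79 clumps, or 1.34% (95% exact interval 1.06 to 1.67%). A sum over a clump cannot tell fewer lymphocytes from less RNA in each. The 10 richest clumps held 345 of the 473 UMIs, 72.9%. All 10 were placed in the crypt zone, 8 were pairs, and they came from mice 2, 3 and 4 (6, 2 and 2). Their median UMI count was 720.5 and their median share of enterocyte UMIs 0.256%, against 1.52% in clumps with none of the genes.

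Zones were given by 70 landmark genes of enterocytes, none of them an effector gene, as crypt (3529 clumps), mid-villus (1550) and tip (804). The 9 genes summed to 0.366, 166, 49.4, 6.89 and 2.71 CPM in the crypt clumps of mice 1 to 5, to 6.85, 3.68, 2.90, 4.50 and 5.80 CPM in mid-villus clumps, and to 0, 35.1, 1.23, 0 and 50.6 CPM in tip clumps. Mice 2 and 3 were highest in the crypt, mouse 4 was so by a small margin, mouse 1 was highest in the mid-villus, and mouse 5 was highest at the tip, from 4 UMIs. The share of clumps with at least 1 UMI was 2.19% ± 2.42 (SD, n = 5) for crypt, 0.925% ± 0.484 for mid-villus and 1.01% ± 1.30 for tip clumps, and the zones overlapped. Without the 10 richest clumps the crypt share was 1.65% ± 1.51, and with clumps thinned to 500 UMIs the shares were 1.37, 0.268 and 0.939%. With pairs alone they were 1.88% ± 2.65, 0.363% ± 0.501 and 2.08% ± 3.57, so the order of crypt and tip turned, the tip value with 8.33% in mouse 5 from 1 of 12 clumps.

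No member reached the count needed for the zone tests, in which 53.1% of 7445 genes differed between tip and crypt, 40.3% between mid-villus and crypt and 12.3% between tip and mid-villus. With no filter on low counts, 1 member was called in 1 contrast, Gzma in mid-villus against crypt. The zone of these clumps carries a limit of its own. By CPM, all 30 crypt landmarks were higher in lymphocyte than in enterocyte wells, against 0 of 10 mid-villus and 4 of 30 tip landmarks. By total UMIs genes in general lean that way, with a median log2 difference of 1.70 over all genes tested. The same rule applied to single wells placed 99.4% of 1408 lymphocyte wells in the crypt, against 10.8% of enterocyte wells. A position in the crypt and a content of lymphocyte RNA cannot be told apart by these landmarks.

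Gzma and Ccl5 led in the crypt as in single wells, with 180 and 174 of the 435 UMIs there, followed by Gzmb with 32, Itgae 15, Nkg7 13, Cd160 8, Klrd1 7 and Xcl1 6. Fasl had none. Where a clump met the T cell rule used for wells, which 23 did, the genes stood at 5967 CPM, and 19 of the 23 held at least 1. Of those 23, 21 were in the crypt zone, 2 in the mid-villus and none at the tip. By zone, the T cell list itself stood at 30.9 ± 38.2 CPM (crypt), 12.9 ± 12.5 (mid-villus) and 11.2 ± 3.34 (tip).

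Pairs and larger clumps could not be told apart by these genes. The sum was 24.0 ± 31.8 CPM in pairs (SD, n = 5) and 6.11 ± 3.37 in larger clumps (n = 3), with overlapping values. Mice 2 and 3, which had the highest levels in pairs (77.5 and 25.7 CPM), gave no larger clumps, so the means rest on unlike animals. In mice 1, 4 and 5, with both sizes, pairs stood at 0.766, 0 and 15.96 CPM and larger clumps at 2.395, 6.98 and 8.96, higher in larger clumps in mice 1 and 4 and lower in mouse 5. Ccl5, the 1 member that could be tested, stood at 13.2 ± 18.2 against 2.57 ± 1.23 CPM (log2 difference −2.61, SE 1.16, adjusted p = 0.715 by edgeR). No gene of the lists was called either (5 granule companions, 5 epithelial partners, 4 transcription factors and Tnfsf10 tested). In that comparison 0 of 9780 genes were called, 0.0%, with 671 at an unadjusted p under 0.05 and 1 by DESeq2. In mouse 4, pairs held no effector UMI in 391 clumps, which allows a level of up to 6.32 CPM, and larger clumps stood at 6.98. The T cell list went the other way in that mouse, with 59.0 CPM in pairs, from 28 UMIs in 20 clumps, and 2.78 CPM in larger clumps. The clumps above 2n of mouse 6 held 1 effector UMI in 278 wells, 0.804 CPM.

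Epithelial partners of the effector genes could be tested by zone. Il15 was higher in tip than in crypt clumps, at 35.6 ± 34.7 against 4.12 ± 2.07 CPM (SD, n = 5, log2 difference 3.92, SE 0.55, adjusted p = 6.64e-06 by edgeR). Btnl1 was higher too, at 91.9 ± 39.8 against 36.1 ± 10.9 CPM (1.77, SE 0.32). Cdh1 was higher by 0.93 (SE 0.28), Ccl25 was lower, at 302 ± 109 against 745 ± 173 CPM (−1.02, SE 0.28), and Fas was not called (0.17, SE 0.53). Between mid-villus and crypt, Fas, Il15 and Btnl1 were higher, and between tip and mid-villus Il15 and Cdh1 were higher and Ccl25 lower.

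Of the other lists, 3 granule companions, 4 transcription factors and Tnfsf10 could be tested by zone, and no receptor or residency gene. Prdm1, which encodes the transcriptional repressor Blimp1, was higher in tip clumps, at 36.4 ± 23.3 against 2.02 ± 0.947 CPM in crypt clumps (log2 difference 4.95, SE 0.59, adjusted p = 1.01e-06 by edgeR), and it was higher in each of the other 2 contrasts toward the tip. Sox13 was higher in tip and in mid-villus than in crypt clumps. Stxbp2 and Lamp1 were higher and Ctsc lower in tip than in crypt clumps, Lamp1 was also higher in mid-villus than in crypt clumps, and Ctsc was lower in tip than in mid-villus clumps. Id2, Id3 and Tnfsf10 were called in none of the 3 contrasts.

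**Figure D5:**
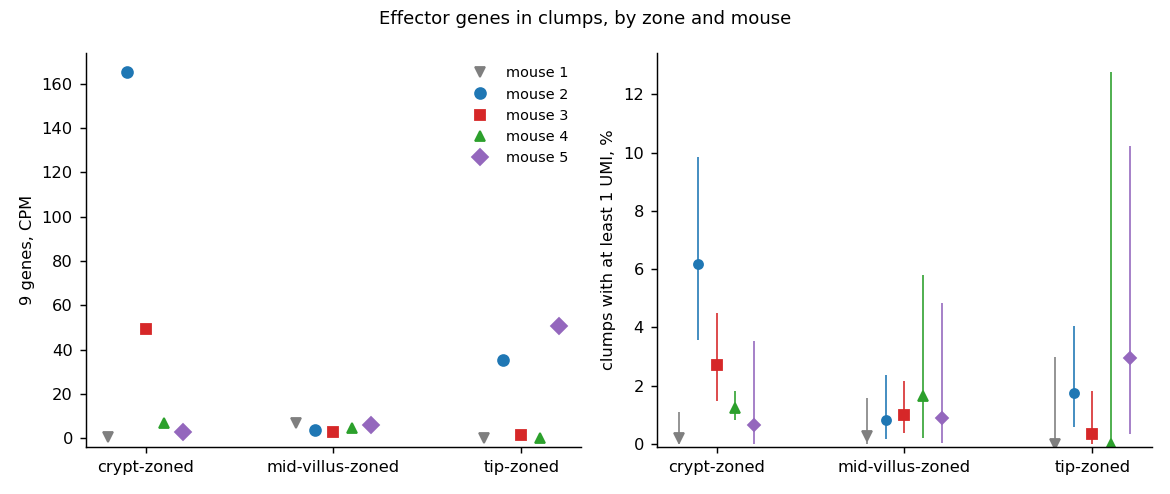
Effector genes in clumps by zone, 1 point per mouse: summed level of the 9 genes (left, CPM) and share of clumps with at least 1 UMI (right, %, with 95% exact binomial intervals). Mouse 2 reaches 166 CPM and 6.18% in the crypt zone, and the other values in all zones lie at or under 50.6 CPM and 2.94%.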

How the data were processed

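Single cells and clumps of mouse jejunum were sorted into 384-well plates and sequenced by MARS-seq. Per their methods, the authors aligned reads with STAR through zUMIs to GRCm38, with settings for the strand of the library, and per the labels they used bcl2fastq 2.15.0.4. The authors deposited raw UMI counts per gene and well, 1 table for single cells and 1 for clumps, with whole numbers and no normalization. The background subtraction that the authors describe is not in these counts, and it was not repeated here because empty wells are not marked. Every well matched a labelled plate, and all plates share 1 set of 384 well barcodes, so shared barcodes carry no information on shared cells.

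A well of single cells needed between 200 and 7000 UMIs, between 150 and 1500 genes and no more than 40% of UMIs from mitochondrial genes. A clump needed 200 genes, over 500 UMIs and no more than 30% from mitochondrial genes, and the 2% with the lowest landmark share were dropped. Doublets were limited in wells by these upper bounds alone, with no doublet caller. A lymphocyte well had at least 3 UMIs over at least 2 T cell genes, an enterocyte well at least 10 UMIs of enterocyte genes and no other class. A clump took the zone whose landmark list matched it best. Reads of Trbc1 and Trbc2, and of Tcrg-C1, Tcrg-C2 and Tcrg-C4, come from near-identical copies and may be split between them.

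UMIs were summed per mouse and class, with at least 5 wells, and tested with edgeR 4.0.16 (quasi-likelihood, TMM, filterByExpr, R 4.3.3) with Benjamini-Hochberg adjustment over all genes tested and a threshold of 0.05. DESeq2 1.42.0, its size factors, an unfiltered fit, a block for the mouse, leaving out each mouse, total UMIs alone, stricter wells and Leiden clusters (scanpy 1.11.5) were alternatives. The script was tested on simulated data. Groups with the same mouse number in a table were taken as paired, since the labels number the mice, although mouse 2 of the single cells has plates of 2 labelled ages and may be more than 1 animal. Deviations of such groups from their group means correlated at 0.0955 to 0.1456 between lymphocyte and enterocyte wells, 0.1047 to 0.2522 between Trdc and Cd8b1 wells, 0.1702 to 0.5407 between zones and 0.227 to 0.3767 between clump sizes. Sums in the tests held 13307 to 19051608 UMIs, and confidence intervals (95%, exact) and floors of 3 UMIs cover counting error only.

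The members and lists were chosen with earlier results of these data known. All 10 members were named in each comparison where they could be tested, 6 lists were counted whole with values for some of their genes, and, for Trdc against Cd8b1 wells, the 5 genes of largest and the 5 of smallest log2 difference among those past the threshold that moved alike in every mouse, of which 3 were lower.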

Additional observations from a re-analysis of the deposited data

Results flagged for a closer look

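Of 21 groups of 4 or more mice that could be tested, 3 held a mouse far from the others, and chance gives about 1 in 20. All 3 are the crypt clumps of mouse 2, so they are not independent of each other and their number cannot be set against that rate. Ccl5, the chemokine of most lymphocyte wells, stood at 91.33 CPM there against 0 to 11.97 CPM in the other 4 mice, from 80 UMIs. Klrd1 and Xcl1 stood at 3.42 CPM each, from 3 UMIs each, against 0 to 0.945 CPM. In the same clumps 12 of 259 met the T cell rule.

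Wells placed in no class carried the genes as well. Of 855 such wells, 165 held at least 5 UMIs of the 10 genes, 3410 UMIs in all, with a median of 496 UMIs per well. Of the 165, 128 held a T cell UMI and 37 held none, so the rule that asks for 3 UMIs left out wells of shallow depth with effector RNA. These wells are outside every comparison above.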

How the results depend on the processing

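The 10 members were higher in lymphocyte than in enterocyte wells under every alternative run (126 values, all of the same side of the threshold), although Leiden clusters called 3633 genes in place of 5549. The comparison of Trdc with Cd8b1 wells moved most: from 23 genes it went to 12 with DESeq2, 67 with no filter on low counts, 39 with the replicate block (5 members), 46 at a threshold of 0.25 and 12 with at least 2 UMIs of Trdc or Cd8b1, which left 1 member of 4. Leaving out a mouse gave 3 to 14 genes and 0 to 2 members. Over the alternatives, 12 of its values for members lost their call and 1 gained one. Between zones, pairs alone gave 2451 genes for tip against crypt and 1523 for mid-villus against crypt, and leaving out a mouse gave 2553 to 4146 and 1755 to 3260, the lowest without mouse 3. Tip against mid-villus went from 919 to 2050 with the block and to 358 to 1036 without a mouse, the lowest without mouse 1, 2 or 3 (358, 377 and 382). With no filter, 1 member was called for mid-villus against crypt. Larger clumps against pairs gave 1 gene with DESeq2 and 0 to 1 without a mouse. The block changed no other call of a member. Shares of lymphocyte wells moved by more than the spread between mice when thinned to 500 UMIs and with the strict rule of 6 UMIs over 3 T cell genes, to 90.7 and 97.2% for Ccl5, 38.0 and 64.2% for Nkg7, 29.96 and 50.7% for Itgae, 9.85 and 18.6% for Cd160 and 1.15 and 2.41% for Prf1. Thinning also moved Fasl to 5.75% and Xcl1 to 2.61%, and the mid-villus share of clumps to 0.268%, which was 0.363% with pairs alone. Pairs alone also moved the tip share from 1.01 to 2.08%, above the crypt's 1.88%, so the order of these zones turned, within the spread between mice. With total UMIs alone, Prdm1 gained a call between lymphocyte and enterocyte wells, and Stxbp2, Lamp1, Cdh1 and Fas lost theirs, while Tyrobp gained one between Trdc and Cd8b1 wells. The causes were not tested, except that thinning lowers a share by construction. Prf1, Fasl and Xcl1 had too few UMIs to be tested between subsets. In clumps the same held for every member with a row between zones, and for all but Ccl5 between sizes. Alternatives added after the data were seen were total UMIs alone, plates with few lymphocyte wells (36.7 CPM of the 10 genes in enterocyte wells), and clumps without mouse 4 or without the 10 richest.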
